A study of Homo sapiens with 12 samples.

Results

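The data describe how the RNA of wild-type human fibroblasts changed when serum was withdrawn for 10 days. The members are 6 of the 12 libraries of the study, all those labelled wild type, and the 13236 of 60671 genes that had more than 1 CPM (counts scaled to a library of fixed total size) in 3 or more of the 12 libraries. The cells were BJ-5ta, human fibroblasts immortalized by the expression of telomerase. The study asked how loss of LEO1, a subunit of the PAF1 complex of transcription elongation, alters the entry of fibroblasts into quiescence, a reversible exit from the cell cycle. Libraries 1, 2 and 3 came from wild-type cells in RPMI medium with 10% fetal bovine serum, and libraries 7, 8 and 9 from wild-type cells kept for 10 days in the same medium with 0.1% serum, which the labels call quiescent. Poly(A) RNA was sequenced from each, with synthetic ERCC transcripts added at the same dilution to every RNA sample. The other 6 libraries came from a single clone with a deletion in LEO1 and enter here only through the shared estimate of the spread between libraries and the test of the difference between genotypes. Neither the labels nor the methods say that the libraries of a group came from separate cultures, so the p-values measure only the spread between these libraries, which may be technical.

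Serum carries growth factors, lysophospholipids and adhesive proteins that keep fibroblasts in cycle. Receptor tyrosine kinases pass the signal through RAS and ERK to immediate early transcription factors such as FOS and EGR1, whose mRNAs rise and decay quickly after serum is added, and to feedback inhibitors such as the sprouty proteins. Serum also polymerizes actin, which frees the myocardin-related coactivators of serum response factor (SRF) and raises the genes of the contractile cytoskeleton. Quiescent fibroblasts leave the cycle, hold less RNA, and continue to make and remodel extracellular matrix.

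The wild-type libraries held between 26240632 and 39212519 gene counts. All 14 fibroblast markers were among the tested genes and summed to between 59988 and 72910 CPM in 10% serum and between 58374 and 77771 CPM in 0.1% serum. Of the markers of other cell types, 7 of 10 epithelial, 7 of 9 endothelial, 8 of 10 immune, 8 of 11 melanocyte or neural and 6 of 8 adipocyte genes never passed 1 CPM. KRT5, KDR, MS4A1, SOX10 and ADIPOQ were among those at 0 counts in all 6 libraries. Others were detected, among them TEK (1.61 to 4.78 CPM), CD14 (0.74 to 1.43), CD68 (0.55 to 1.45), PPARG (3.83 to 6.9) and CEBPA (0.93 to 9.35). The adipocyte list summed to between 5.559 and 7.504 CPM in 10% serum and between 12.23 and 16.54 CPM in 0.1% serum. The epithelial list summed to between 319 and 463 CPM in 10% serum and between 167 and 182 CPM in 0.1% serum, through KRT8 (53.5 to 79.7 CPM) and KRT18 (96.0 to 399 CPM), and MITF of the melanocyte list stood at 15.4 to 20.9 CPM. Smooth muscle markers summed to between 572 and 852 CPM in 10% serum and between 394 and 413 CPM in 0.1% serum, with MYH11 and DES under 1 CPM throughout. Libraries 3 and 9 stood apart from the other libraries of their groups. The chi-square statistic per gene between libraries was 3.04 for 1 and 2 but 100 for 1 and 3 and 97.3 for 2 and 3, and it was 10.2 for 7 and 8 but 84.3 for 7 and 9 and 73.9 for 8 and 9. Results that rest on library 3 or 9 are therefore given with and without both. The exons of a gene can share reads with an overlapping gene, because the strand setting of the counting was not given. This touches ACTA2 (30.1% of exon bases lie under exons of genes on the opposite strand), CA9 (38.5%), IL6 (20.7%), ICAM1 (23.6%) and NQO1 (17.7%). Stretches of 58 bases found also in other genes make up 53.2% of DPT, 44.8% of MT-CO1, 12.5% of NFE2L2 and 9.66% of C1R, so their values are uncertain to that extent.

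The first question was how far the RNA fell in all. Libraries 1, 2 and 3 held 126, 107 and 67.9 gene counts per ERCC count, and libraries 7, 8 and 9 held 47.5, 59.0 and 37.1. The groups did not overlap, and their means, 100.5 ± 29.8 and 47.9 ± 11 (SD, n = 3), differed by a ratio of 2.10. An exact two-sided permutation test gave p = 0.1, the smallest value that 3 libraries against 3 allow. The RNA input of each library is given only as a range, and fewer cells and less RNA per cell cannot be told apart in such counts. On the ERCC scale, where each library is scaled to its spike-in counts, the log2 fold change of the median gene was -0.97 and 94.96% of the tested genes lay below 0. Under edgeR's likelihood ratio test with Benjamini-Hochberg adjustment (adjusted p under 0.05), 4776 genes were called lower (36.1% of those tested) and 125 higher (0.944%). The count of lower genes depended on single libraries. It was 1205 without library 1, 1790 without library 2, 7561 without library 3, 1147 without library 7 and 1296 without library 9, and the count of higher genes was 83 without library 2 and 76 without library 7.

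The second question was which genes moved beyond this common shift. For this the libraries were scaled to their gene counts with edgeR's TMM factors, which sets the typical gene near 0, and values on this relative scale are called scaled CPM. The median log2 fold change was 0.00, and 5% of the genes lay below -1.03 and 5% above 0.97. On this scale 2197 genes fell (16.6%) and 2117 rose (16%), and 654 of the former and 598 of the latter changed at least 2-fold. The values of the groups did not overlap in the lower direction for 23.7% of the tested genes and in the higher direction for 24.7%. All 2197 genes that fell relative to the others were also called lower on the ERCC scale, and all 125 called higher on the ERCC scale also rose relative to the others. The 2 scales differed for the remaining 1992 genes that rose relative to the others, none of which was called on the ERCC scale. Of the 2117 risers, 1496 had a negative log2 fold change on the ERCC scale. For most of them the estimate on the ERCC scale was thus a smaller drop per spike-in. None of the 2117 was called lower there, so a drop was not shown for single genes. A further 2579 genes were called lower on the ERCC scale alone. With library totals in place of TMM factors, 1667 genes fell and 2905 rose, which moved the share of risers among the calls from 49.1% to 63.5%. The serum response relative to the other genes differed between the wild type and the LEO1 knockout for 540 genes (4.08%, interaction term of the same fit), and 371 of them were among the 4314 called in wild type.

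**Figure D1:**
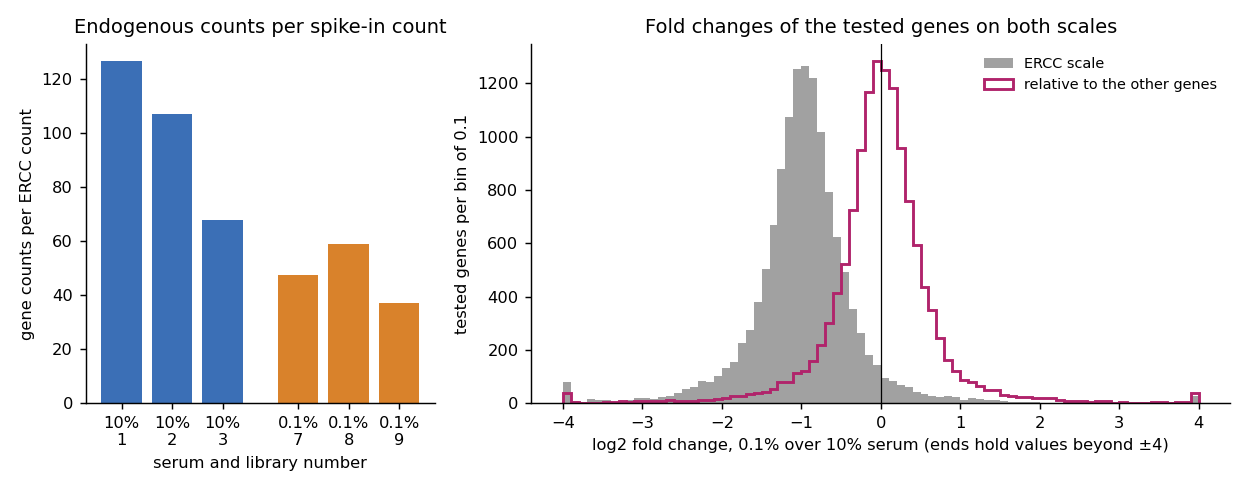
Left, gene counts per ERCC count in each wild-type library (bars; blue, 10% serum; orange, 0.1% serum), with the 3 libraries in 0.1% serum between 37.1 and 59.0 and those in 10% serum between 67.9 and 126. Right, the number of tested genes per bin of log2 fold change (0.1% over 10% serum) on the ERCC scale (grey) and relative to the other genes (line), with values beyond ±4 counted in the end bins, and with medians that lie at -0.97 and 0.00.

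The genes were then grouped in lists by function, and each list is described by the number of members called and by its median on the relative scale, beside the 16.6% of all tested genes that fell and the 16% that rose. The lists that fell furthest in rank were glycolysis (19 of 23 members fell, none rose, median log2 fold change -1.16), smooth muscle and pericyte markers (6 of 7 fell, median -1.09) and actin and contractile genes (24 of 27 fell, none rose, median -0.99). With libraries 3 and 9 left out, 3 of the 7 smooth muscle and pericyte markers fell. Among those at the other end were immediate early genes (11 of 20 rose, 1 fell, median 0.81), complement (7 of 13 rose, none fell, median 0.76), mitochondrially encoded genes (10 of 13 rose, none fell, median 0.72), matrix glycoproteins and proteoglycans (14 of 32 rose, 7 fell, median 0.63), the retinoic acid pathway (6 of 13 rose, 1 fell, median 0.47) and cytosolic ribosomal proteins (50 of 75 rose, none fell, median 0.45). Many lists held members that moved in both directions, and the plot of list members shows their spread.

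**Figure D2:**
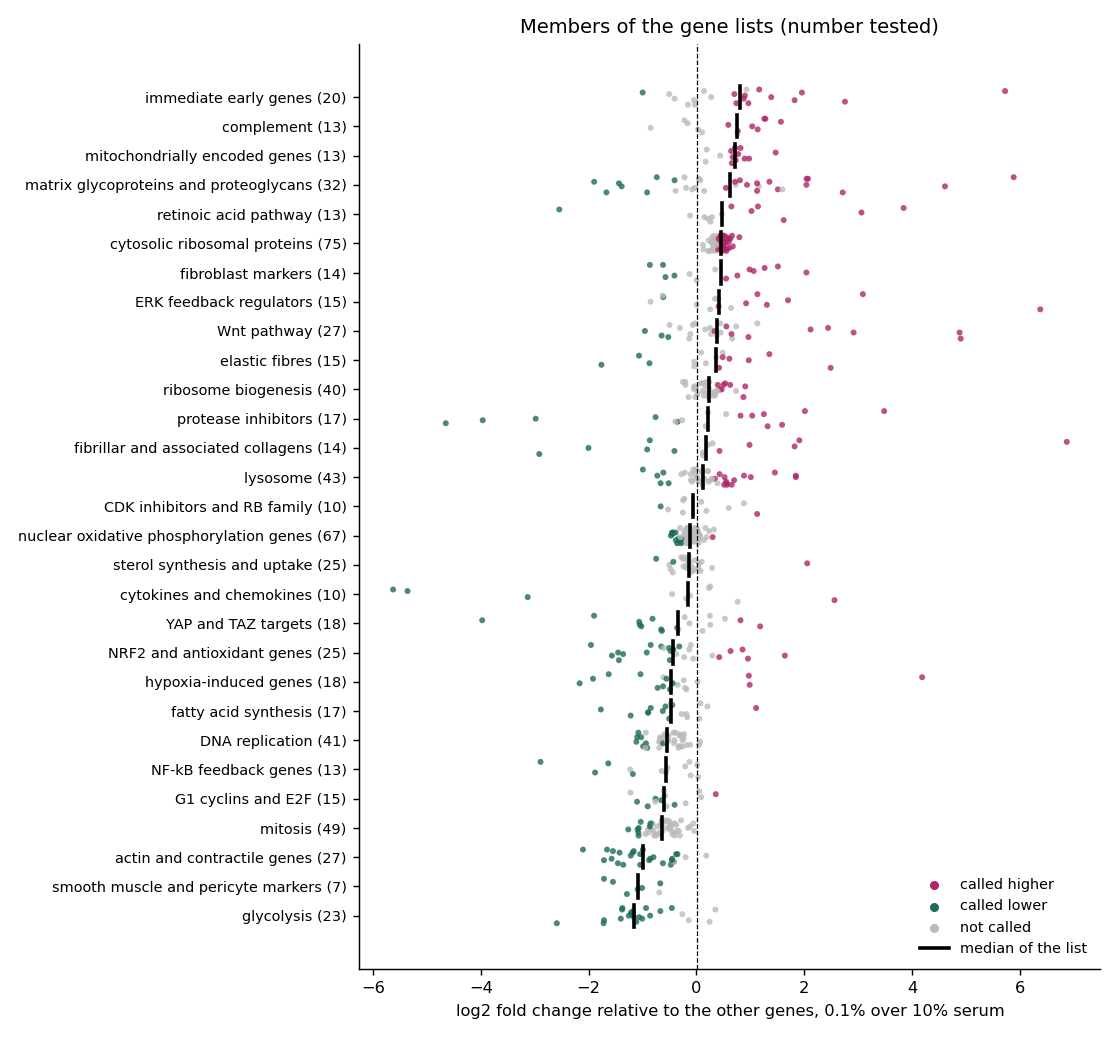
Log2 fold change relative to the other genes (0.1% over 10% serum) of every tested member of 29 gene lists (points; colours give the call by edgeR), with the number tested in brackets, the median of each list (black bar) and the median of all tested genes (dashed line, 0.00). Glycolysis and actin genes lie almost wholly on the left, at medians of -1.16 and -0.99, and immediate early genes have the highest median, 0.81.

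Genes that serum is known to induce split into opposite groups. Immediate early genes rose in rank after 10 days in 0.1% serum, and contractile genes, which serum drives through actin and SRF, fell. The immediate early list covers transcription factors and RNA-binding proteins induced within minutes of a growth factor signal. EGR2, a zinc finger factor of the EGR family, read 9.36, 7.93 and 2.75 scaled CPM in libraries 1, 2 and 3 and 364, 396 and 302 in libraries 7, 8 and 9. It was 53 times as high in 0.1% serum by the group means, with a log2 fold change of 5.73 ± 0.42 (SE) and an adjusted p of 6.2e-27, and it rose on the ERCC scale too (4.65, adjusted p = 3.7e-16). EGR1, the founding member of that family, read 1009, 959 and 672 against 2604, 2600 and 1709 scaled CPM. The groups of EGR1 did not overlap and it rose by 1.39 ± 0.20 on the log2 scale relative to the other genes (adjusted p = 1.7e-10), while its log2 fold change of 0.40 on the ERCC scale was not called (adjusted p = 0.4).

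Of the 20 immediate early genes, 8 were not called. JUNB, which pairs with FOS proteins on DNA, read 147, 134 and 161 scaled CPM in 10% serum and 530, 563 and 624 in 0.1% serum (log2 fold change 1.96 ± 0.29, adjusted p = 1.7e-09). FOS itself read 500, 452 and 184 against 901, 816 and 829 (1.17 ± 0.31, adjusted p = 0.0013), with library 3 the lowest. FOSB (1.82) and EGR3 (2.76) also rose, and only EGR2 and EGR3 of the list were called higher on the ERCC scale. On that scale 4 members were called lower, and the list median was -0.16. The 1 member that fell relative to the other genes was DUSP1, a phosphatase that inactivates MAP kinases. It fell by 1.00 on the log2 scale, with values of 182, 172 and 277 against 115, 118 and 83.1 scaled CPM. The log2 fold change of DUSP1 without libraries 3 and 9 was -0.60 and was not called (adjusted p = 0.088). MYC, often used as a sign of growth factor signalling, had values of 44.3, 43.4 and 53.7 against 48.9, 46.6 and 43.3 scaled CPM, and the groups overlapped.

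Feedback regulators of ERK, genes that ERK activity induces and whose products restrain it, behaved like the immediate early genes, with 7 of 15 higher and 1 lower (median 0.41, and 0.73 without libraries 3 and 9). IL17RD, a membrane inhibitor of FGF signalling also called SEF, went from 0.225, 0.289 and 0.106 to 22, 19.7 and 10.7 scaled CPM (log2 fold change 6.38 ± 0.46, adjusted p = 2.0e-38). SPRY1, a sprouty inhibitor of RAS, went from 6.83, 6.93 and 4.2 to 59.2, 58.7 and 35.0 (3.09 ± 0.25, adjusted p = 4.6e-29), and both were called higher on the ERCC scale. ETV1, an ETS factor induced by ERK, rose by 1.7 on the log2 scale. In each of these 3 genes library 9 was the lowest of the libraries in 0.1% serum and still above all libraries in 10% serum. On the ERCC scale 2 of the 15 list members were called higher and 3 lower, with a list median of -0.47.

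Contractile genes moved the other way. ACTA2, the smooth muscle actin that marks myofibroblasts, read 389, 359 and 850 scaled CPM in 10% serum and 116, 117 and 139 in 0.1% serum. It fell by 2.11 ± 0.41 on the log2 scale (adjusted p = 9.3e-06). MYL9, a regulatory light chain of myosin, read 1122, 1103 and 1897 against 348, 376 and 581 (-1.66 ± 0.29, adjusted p = 3.0e-07), and ACTG2, an enteric smooth muscle actin, read 27.8, 29.3 and 50.3 against 9.38, 9.87 and 13.4 (-1.72 ± 0.28). In all 3 genes the groups were separate and library 3 was the highest of the 6. TAGLN, which binds actin filaments, and CNN1, calponin, fell by 1.46 and 1.55, and the cytoplasmic actin ACTB, one of the most abundant mRNAs, fell from 5497, 5581 and 9392 to 3143, 3255 and 3528 scaled CPM (-1.04 ± 0.22). MYOCD, a coactivator of SRF, fell from 17, 14.5 and 29.4 to 1.56, 1.65 and 0.467 (-4.05 ± 0.58, adjusted p = 1.2e-08). The list took 3.70%, 3.62% and 5.16% of the gene counts of libraries 1, 2 and 3 and 2.24% to 2.29% of those of libraries 7, 8 and 9. Its median level per kilobase fell from rank 171 to rank 313 of 11882 protein-coding genes. When libraries 3 and 9 were left out, 18 of the 27 members fell and the median was -0.79.

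The promoters of both groups are known for CArG boxes, the elements that SRF binds. A pair of promoters is shown, one from each direction of change, because each holds 2 CArG boxes within 250 bases of its start. Both are from RefSeq on GRCh38.p14, run 5′ to 3′ up to the base before the start, and have the CArG boxes in capitals. That of EGR1 lies on the plus strand at chr5:138465229-138465478, with boxes that begin 105 and 83 bases before the start, and that of ACTG2 on the plus strand at chr2:73892758-73893007, with boxes at 110 and 73 bases.
EGR1: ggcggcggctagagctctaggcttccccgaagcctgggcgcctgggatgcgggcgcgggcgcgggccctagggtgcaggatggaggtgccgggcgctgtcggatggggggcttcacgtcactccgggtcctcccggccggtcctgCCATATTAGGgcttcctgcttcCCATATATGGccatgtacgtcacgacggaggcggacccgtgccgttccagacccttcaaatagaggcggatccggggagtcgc
ACTG2: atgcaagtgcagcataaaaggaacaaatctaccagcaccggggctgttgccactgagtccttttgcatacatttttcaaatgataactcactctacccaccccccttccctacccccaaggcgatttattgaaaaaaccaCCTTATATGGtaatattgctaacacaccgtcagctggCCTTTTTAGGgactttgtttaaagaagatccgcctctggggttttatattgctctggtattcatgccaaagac
In windows from 250 bases before to 50 after the start, searched on both strands, 6 of the 24 promoters of the contractile list with an entry held a CArG box (25.0%: ACTG2, ACTG1, CNN2, MYLK, TPM4 and FLNA), as did 2 of 16 of the immediate early list (12.5%: EGR1 and SRF). The share was 1.29% of all 27305 promoters and 1.03% of the 10210 promoters of tested genes. Over all genes that fell relative to the others the share was 1.26%, and over those that rose it was 0.69%. The same element thus stood in the promoter of EGR1, which rose, and in that of ACTG2, which fell. The search for this element was chosen after the values were seen, and a match does not show that SRF is bound.

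**Figure D3:**
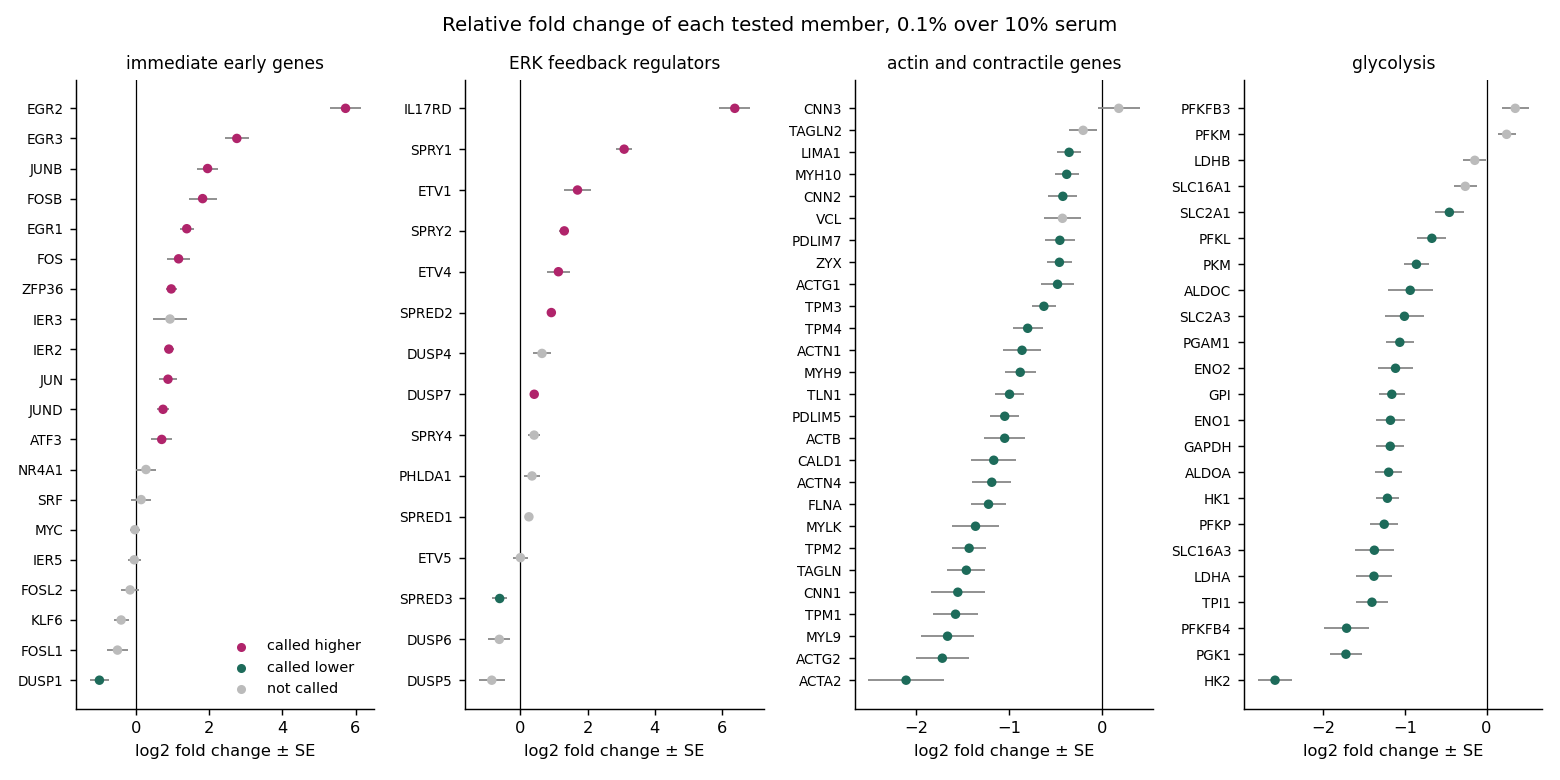
Log2 fold change relative to the other genes (0.1% over 10% serum, with the standard error from edgeR as bars) of each tested member of 4 lists: immediate early genes, ERK feedback regulators, actin and contractile genes, and glycolysis. EGR2 at 5.73 and IL17RD at 6.38 lead the first pair, and 24 of 27 contractile and 19 of 23 glycolysis members were called lower.

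Targets of YAP and TAZ, coactivators that also respond to actin tension, were divided, with 9 of 18 lower and 2 higher (median -0.35, and -0.16 without libraries 3 and 9). Without library 8, 5 of them fell. CRIM1, a transmembrane protein that binds BMPs, fell from 886, 879 and 1574 to 310, 271 and 314 scaled CPM (-1.90 ± 0.24). CCN2, the matricellular connective tissue growth factor, rose from 1403, 1310 and 1218 to 3545, 3740 and 1636 (1.18 ± 0.33, adjusted p = 0.0025) and stood at rank 22 by level per kilobase in 0.1% serum. Library 9 was the lowest of the CCN2 values in 0.1% serum and yet above all those in 10% serum. When the counts of the 2 lowest-numbered libraries of every group were added up, CCN2 was not called (1.05, adjusted p = 0.11). Nor was it called on the ERCC scale (0.27, adjusted p = 0.57).

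Glycolysis, the breakdown of glucose to pyruvate and lactate, was the list with the lowest median. It took 1.40% to 1.65% of the gene counts in 10% serum and 0.643% to 0.781% in 0.1% serum, and the median rank of its members by level per kilobase went from 1061 to 2145. HK2, the inducible hexokinase that traps glucose in the cell, read 60.6, 58.4 and 97.2 scaled CPM against 10.8, 10.1 and 15 (log2 fold change -2.59 ± 0.21, adjusted p = 2.7e-28). PGK1, phosphoglycerate kinase, read 617, 612 and 820 against 237, 227 and 157 (-1.72 ± 0.19, adjusted p = 6.7e-16), and PFKFB4, which sets the level of an activator of phosphofructokinase, read 18.8, 16.3 and 18.6 against 6.49, 6.13 and 3.77 (-1.71 ± 0.27). None of these groups overlapped. GAPDH, widely used as a reference gene, read 4283, 4307 and 4976 scaled CPM in 10% serum and 1920, 2123 and 1947 in 0.1% serum. It fell by 1.18 ± 0.17 relative to the other genes (adjusted p = 2.3e-10) and by 2.12 on the ERCC scale. Without libraries 3 and 9, 18 of the 23 members still fell and the median was -1.0.

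Several glycolysis genes are targets of hypoxia-inducible factors, whose sites share the core ACGTG. The PGK1 promoter is shown because it holds that core once on each strand (ACGTG and its reverse complement, in capitals), beginning 202 and 183 bases before the start. It is from RefSeq on GRCh38.p14, plus strand, chrX:78103998-78104247, and ends at the base before the start.
PGK1: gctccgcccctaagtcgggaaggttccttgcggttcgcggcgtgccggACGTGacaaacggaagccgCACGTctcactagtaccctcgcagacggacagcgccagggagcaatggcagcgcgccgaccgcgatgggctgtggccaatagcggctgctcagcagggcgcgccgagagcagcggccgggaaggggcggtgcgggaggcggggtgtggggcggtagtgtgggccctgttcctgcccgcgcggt
The core is short and common. It was found in 38.1% of 21 glycolysis promoters, against 26.9% of the promoters of tested genes and 21.6% of all promoters, in 27% of those of genes that fell and in 24.5% of those of genes that rose. This search, too, was chosen after the values were seen.

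Hypoxia-induced genes outside glycolysis did not move as one. Of 18 tested members 9 fell and 3 rose (median -0.47, and -0.38 without libraries 3 and 9). BNIP3, a mitophagy receptor, fell from 170, 166 and 184 to 51.6, 50.8 and 35.1 scaled CPM (-1.92 ± 0.25), and PDK1, a kinase that shuts pyruvate dehydrogenase, fell from 82.7, 78.3 and 76.3 to 30.4, 28.4 and 18.1 (-1.63 ± 0.26). CA9, a carbonic anhydrase at under 10 scaled CPM in every library, stood at -2.17 on the log2 scale (adjusted p = 0.015). That call was lost without library 3 (adjusted p = 0.082), 7 (0.078) or 9 (0.065), and the change was -2.88 without library 8 and -1.34 without libraries 3 and 9 (adjusted p = 0.19). The 3 that rose were VEGFA, the angiogenic growth factor (65.0, 64.8 and 64.7 against 116, 130 and 140, log2 fold change 0.99 ± 0.14), NDRG1, a stress-response protein (0.97 ± 0.15), and ANGPTL4, a secreted inhibitor of lipoprotein lipase (1.94, 1.31 and 1.22 against 30.6, 27.7 and 23.3, log2 fold change 4.19 ± 0.43). ANGPTL4 is also a PPAR target, as is PDK4, a second pyruvate dehydrogenase kinase. PDK4 had 1 to 3 counts in each library in 10% serum and 5.74, 4.66 and 7.25 scaled CPM in 0.1% serum, or 5 counts in one group and 574 in the other. The ratio per library size was 133, with a 95% exact interval of 56.7 to 412 that covers counting error only.

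Proliferation genes depended on libraries 3 and 9. The median member of the mitosis list stood at 33.5, 36.1 and 10.2 scaled CPM in libraries 1, 2 and 3 and at 13.5, 12 and 23.9 in libraries 7, 8 and 9, so library 3 lay below all libraries in 0.1% serum and the groups overlapped. The DNA replication list gave 18.5, 20.6 and 9.8 against 11.3, 11.3 and 15.7. Over all 6 libraries 8 of 49 mitosis genes fell (16.3%) and none rose (median -0.64). Of the replication genes 8 of 41 fell (19.5%) and none rose (median -0.54). Both shares were near the 16.6% of all tested genes that fell. The counts without libraries 3 and 9 were 49 of 49 (median -1.43) and 36 of 41 (median -1.03). In that fit 2343 of all 13236 tested genes fell. The counts of both lists also depended on single libraries. When the counts of libraries 1 and 2, of 7 and 8, and of the matching knockout pairs were added up (pairs summed), no gene of either list was called. No mitosis gene was called without library 1, 2, 7 or 8, whereas 13 were called without library 9 and 38 without library 3. The replication list gave 1 call without library 1, 2, 7 or 8, 16 without library 9 and 31 without library 3. On the ERCC scale all 49 mitosis genes and 39 of 41 replication genes were called lower, against 36.1% of all tested genes.

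MKI67, the gene of the proliferation antigen Ki-67, read 191, 185 and 48.7 scaled CPM in 10% serum and 64.2, 52.8 and 84.1 in 0.1% serum. Its log2 fold change was -1.08 ± 0.42 (adjusted p = 0.039), the call was lost without library 1, 2, 7 or 8 (adjusted p from 0.121 to 0.199), and without libraries 3 and 9 the change was -1.68 (adjusted p = 1.1e-06). TOP2A, the topoisomerase that untangles sister chromatids, read 216, 213 and 55.8 against 84.6, 74.3 and 152 and was not called (-0.64, adjusted p = 0.28), but fell by 1.05 without library 3 (adjusted p = 0.00952) and by 1.43 without libraries 3 and 9 (adjusted p = 3.0e-05). CCND1, cyclin D1, which links growth factors to the cell cycle, had overlapping values of 670, 696 and 616 against 781, 789 and 487 (0.05, adjusted p = 0.89).

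Many mitotic genes carry in their promoters a cell cycle homology region (CHR), TTTGAA, through which the DREAM complex represses them outside the cycle. The MKI67 promoter is shown because it holds this element 2 times, in capitals, at 47 and 29 bases before the start. It is from RefSeq on GRCh38.p14, minus strand, chr10:128126424-128126673, and ends at the base before the start.
MKI67: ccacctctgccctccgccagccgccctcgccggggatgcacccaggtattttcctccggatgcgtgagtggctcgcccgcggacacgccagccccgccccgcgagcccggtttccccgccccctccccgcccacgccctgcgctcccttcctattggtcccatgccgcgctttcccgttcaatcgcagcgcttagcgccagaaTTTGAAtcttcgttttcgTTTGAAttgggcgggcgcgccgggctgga
On either strand, 29 of 43 mitosis promoters held the CHR letters (67.4%), against 9.71% of the promoters of tested genes and 15.4% of all promoters. E2F sites (TTTCCCGC or TTTGGCGC) were found in 16 of 36 replication promoters (44.4%), against 3.7% and 2.31%. Over all genes that fell relative to the others, the shares were 8.85% for CHR and 3.1% for E2F, and over those that rose they were 10.3% and 3.14%.

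**Figure D4:**
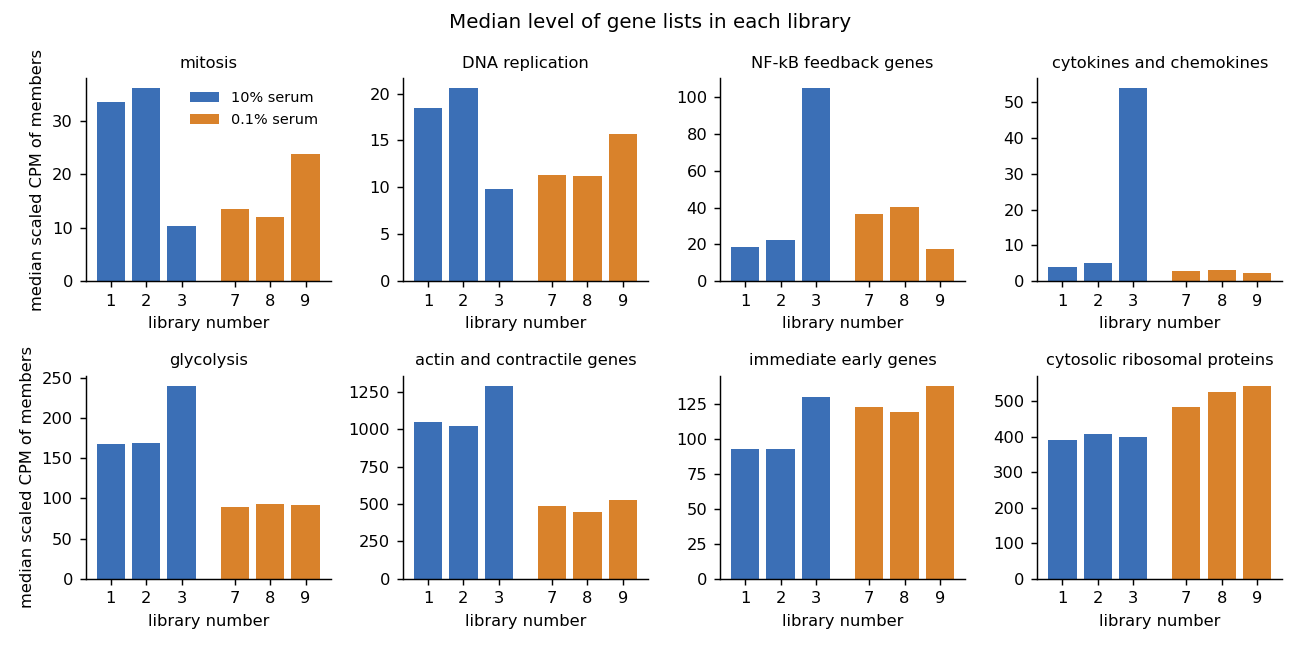
Median scaled CPM of the members of 8 gene lists in each library (bars; libraries 1 to 3 in 10% serum, blue; 7 to 9 in 0.1% serum, orange; each axis starts at 0). The median mitosis gene stood at 10.2 in library 3 and 23.9 in library 9, against 33.5 and 36.1 in libraries 1 and 2, and the NF-kB list peaked in library 3 at 105.

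Among inhibitors of the cycle, only 2 of 10 were called. CDKN2A, which encodes p16 and ARF, rose from 11, 11.6 and 10.5 to 23.3, 26.2 and 22.8 scaled CPM (1.13 ± 0.23), and RB1, the retinoblastoma gene, fell from 92.3, 92.1 and 87.8 to 60.4, 56.0 and 55.4 (-0.66 ± 0.12). CDKN1B, the inhibitor p27 associated with quiescence, stood at -0.53 on the log2 scale, which was not called (adjusted p = 0.062), and CDKN1A, the inhibitor p21, gave -0.23 (adjusted p = 0.33). Without library 9 both were called lower (-0.69, adjusted p = 0.019, and -0.42, adjusted p = 0.028), and the list then had 4 lower and 3 higher calls. With libraries 3 and 9 left out, 5 were lower and 2 higher.

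Matrix genes changed in both directions and by large amounts. COL14A1, a collagen that decorates fibrils in differentiated connective tissue, went from 0.590, 0.788 and 0.317 to 84.9, 60.7 and 54.1 scaled CPM (log2 fold change 6.87 ± 0.39, adjusted p = 4.4e-48). COL6A1 and COL6A2, chains of the microfibrillar collagen VI, went from 2447, 2531 and 2117 to 8193, 8460 and 8439 (1.82 ± 0.17) and from 3068, 3115 and 3322 to 11428, 12291 and 12013 (1.91 ± 0.15). Both chains lay within a narrow range in each group. COL11A1, which nucleates thin fibrils, fell from 617, 614 and 552 to 85.9, 78.4 and 72.0 (-2.92 ± 0.12, adjusted p = 1.1e-114), and COL12A1, a collagen of tissues under tension, from 4235, 4061 and 4042 to 1069, 866 and 1144 (-2.0 ± 0.15). COL1A1, the main chain of collagen I, fell from 33708, 34155 and 25127 to 14235, 13330 and 23531 (-0.86 ± 0.22, and -1.30 without libraries 3 and 9), with library 9 close to library 3. COL3A1, its partner in compliant tissue, rose from 4080, 4050 and 2869 to 6637, 5492 and 9656 (0.99 ± 0.24, and 0.58 without libraries 3 and 9, adjusted p = 0.039). By level per kilobase COL1A1 went from rank 3 to 12 and COL6A2 from rank 36 to 8 of the protein-coding genes. Of 14 fibrillar and associated collagens, 5 fell and 5 rose in all.

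Several members of the matrix glycoprotein list are small leucine-rich proteoglycans, which bind collagen fibrils and growth factors. DCN, decorin, went from 1626, 1692 and 951 to 6173, 5795 and 5608 scaled CPM (2.04 ± 0.25), LUM, lumican, from 2437, 2390 and 1812 to 6528, 6779 and 5623 (1.51 ± 0.18), and OGN, osteoglycin, from 0.450, 0.867 and 0.0264 to 25.8, 24.8 and 29.4 (5.89 ± 0.59, or 6.81 without library 2). VCAN, the large hyaluronan-binding proteoglycan versican, went from 13.1, 11.7 and 1.64 to 237, 204 and 205 (4.61 ± 0.55). In DCN, LUM, OGN and VCAN library 3 was the lowest. DPT, dermatopontin, which binds decorin, rose by 4.65 on the log2 scale, and all but DCN and LUM of these 5 were also called higher on the ERCC scale. ASPN, asporin, of the same leucine-rich family, fell by 1.90, and THBS1, thrombospondin-1, which activates latent TGF-beta, fell from 4400, 4742 and 8286 to 2260, 1837 and 1381 (-1.67 ± 0.27). The list median was 0.63, but 0.34 without libraries 3 and 9 and 0.14 over members with a mean of at least 10 CPM, so its size rests on low genes and on library 3.

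The fibres and enzymes of the matrix were divided in the same way. LTBP4, which tethers latent TGF-beta to elastic fibres, rose from 132, 138 and 103 to 729, 721 and 648 scaled CPM (2.49 ± 0.18, adjusted p = 5.1e-36), and MFAP5, a microfibril glycoprotein, fell by 1.76. Of the elastic fibre list 6 of 15 rose and 3 fell. TIMP1, an inhibitor of metalloproteinases, rose from 409, 404 and 402 to 1529, 1775 and 1601 (2.01 ± 0.12, adjusted p = 3.8e-52) and was the only 1 of the genes in this paragraph besides LTBP4 called higher on the ERCC scale (1.05, adjusted p = 0.048). A2M, a broad protease inhibitor, fell from 490, 514 and 334 to 33.9, 32.2 and 19.6 (-3.96 ± 0.25). CEMIP, which breaks down hyaluronan, fell from 304, 301 and 655 to 25.0, 21.4 and 16.7 (-4.32 ± 0.44), and LOXL2, which crosslinks collagen, from 1489, 1459 and 1161 to 444, 426 and 480 (-1.61 ± 0.14). CTSK, a lysosomal cysteine protease that cuts collagen, rose from 176, 179 and 175 to 623, 676 and 607 (1.85 ± 0.15) and led a lysosome list of 14 risers and 5 fallers among 43.

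**Figure D5:**
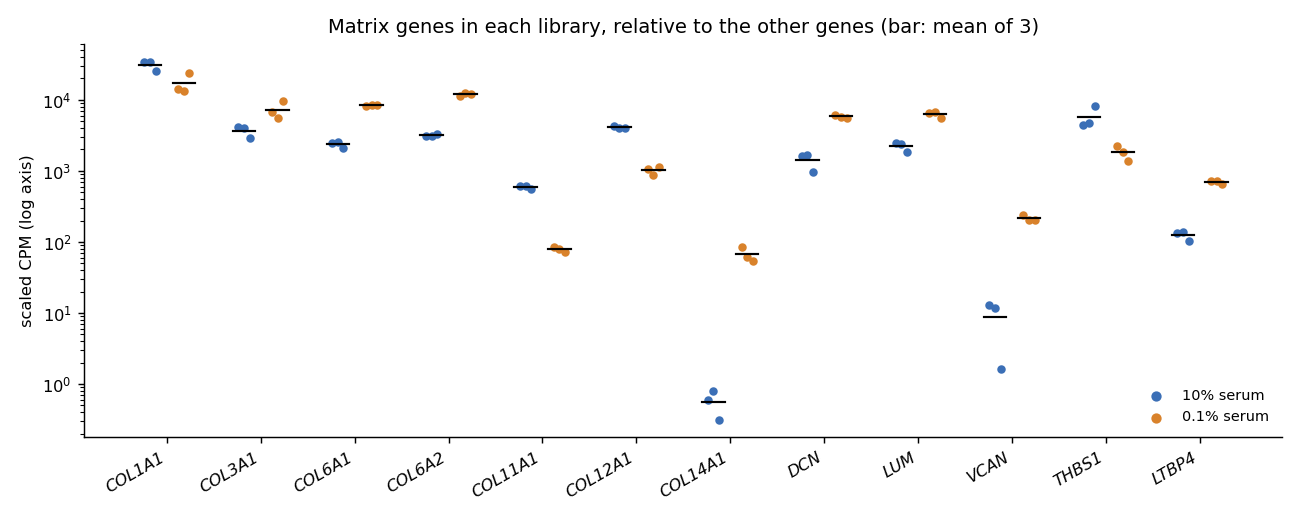
Scaled CPM of 12 matrix genes in each wild-type library on a log axis (points; blue, 10% serum; orange, 0.1% serum; bars, mean of 3). COL14A1 and VCAN lie furthest apart between the groups among the genes plotted, and COL1A1, COL11A1, COL12A1 and THBS1 are lower in 0.1% serum.

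Secreted growth factors and their antagonists also changed in both directions. IGFBP5, an IGF-binding protein and the fifth most abundant protein-coding mRNA per kilobase in 10% serum, fell from 15179, 15806 and 16508 to 2236, 2323 and 3354 scaled CPM (-2.59 ± 0.18, adjusted p = 3.8e-38) and to rank 67. GREM1, a secreted BMP antagonist, fell from 671, 663 and 1539 to 154, 138 and 127 (-2.78 ± 0.28), and INHBA, the activin subunit, from 11.3, 10.6 and 18.3 to 1.59, 1.87 and 1.43 (-3.04 ± 0.36). HGF, the ligand of MET, rose from 11.4, 11.3 and 7.21 to 48.9, 49.6 and 40.6 (2.22 ± 0.27). FGF10, a mesenchymal FGF, had 0 counts in libraries 1, 2 and 3 and 1.07, 1.03 and 0.935 scaled CPM in libraries 7, 8 and 9, at least 12.5-fold above the level of 3 counts per library. Of 22 growth factor ligands, 8 rose and 6 fell. In the Wnt pathway 9 of 27 rose and 3 fell (median 0.38), led by WNT11 and RSPO3, at under 10 scaled CPM in all libraries. The risers of the retinoic acid pathway included STRA6, the retinol transporter, from 3.12, 4.2 and 1.16 to 20.3, 21.6 and 29 (3.06 ± 0.39). APOD, a lipocalin known to rise in arrested fibroblasts, went from 5.96, 6.22 and 2.33 to 193, 225 and 187 (5.38 ± 0.30, adjusted p = 4.4e-50). TENM4, a teneurin of cell contacts, had 0 to 3 counts in each library in 10% serum, 5 in all, and 1102 in 0.1% serum, a ratio per library size of 256 with a 95% exact interval of 109 to 789 that covers counting error only. DIO2, the deiodinase that activates thyroid hormone, fell by 5.43 relative to the other genes, from 100, 108 and 138 to 3.15, 3.23 and 1.67.

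Inflammatory genes and complement, both parts of innate defence, differed. The size of the cytokine and NF-kB changes depended on library 3. CXCL8, a neutrophil chemokine, read 4.97, 5.09 and 244 scaled CPM in libraries 1, 2 and 3 and 2.02, 2.53 and 0.584 in libraries 7, 8 and 9, and its log2 fold change went from -5.63 to -1.56 without library 3 (adjusted p = 0.18). IL6 read 2.73, 3.91 and 119 against 1.10, 1.61 and 0.351 and its change went from -5.36 to -1.71 without library 3 (adjusted p = 0.016). For ICAM1, an adhesion molecule induced by NF-kB, the change went from -2.89 to -1.54, and for PTGS2, the inducible cyclooxygenase, from -1.88 to -1.09. The call of PTGS2 was lost without libraries 3 and 9 (-0.70, adjusted p = 0.051). The median member of the NF-kB list stood at 18.7 and 22.4 in libraries 1 and 2 and at 105 in library 3, against 36.5, 40.2 and 17.4 in libraries 7, 8 and 9. Over all libraries 4 of its 13 members fell and none rose, and 3 of 10 cytokines fell and 1 rose. With libraries 3 and 9 left out the same lists gave 1 lower and 3 higher (median 0.39) and 1 lower and 5 higher (median 1.28), so their direction turned. With single libraries left out, 2 NF-kB members fell without library 3, 7, 8 or 9 (1 also rose without library 3), and without library 3 the cytokines gave 1 lower and 5 higher. CXCL12, a chemokine that fibroblasts make constitutively, did not depend on library 3 in this way. It rose from 101, 103 and 43.0 to 461, 506 and 492 (2.56 ± 0.34, adjusted p = 4.0e-11).

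Relative to the other genes, complement genes made by fibroblasts rose without exception among those called. C1R, a protease of the classical pathway, rose from 598, 602 and 455 to 1279, 1542 and 1145 scaled CPM (1.26 ± 0.29), and CLU, clusterin, which blocks the terminal complex, from 119, 122 and 112 to 235, 284 and 338 (1.28 ± 0.20). Neither was called on the ERCC scale, where 2 of the 13 members were called lower and none higher (median -0.21). Without libraries 3 and 9 the list still gave 7 risers and no fallers among 13, with a median of 0.71.

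Cytosolic ribosomal protein genes and genes of the mitochondrial genome rose relative to the other genes. Other lists of translation did not show this: of 42 initiation and elongation factors 6 fell and 7 rose (median 0.02), of 20 aminoacyl-tRNA synthetases 6 fell and none rose (median -0.22), and of 68 mitochondrial ribosomal proteins 6 fell and 4 rose (median -0.02). No cytosolic ribosomal protein gene was called on the ERCC scale in either direction, where the median of the list was -0.50 against -0.97 for all tested genes. RPS4X read 609, 629 and 631 scaled CPM against 953, 1043 and 990 (0.68 ± 0.17), and RPL13 read 724, 748 and 747 against 1079, 1195 and 1234 (0.66 ± 0.17). All 75 members had a positive relative log2 fold change. The list took 3.12% to 3.26% of the gene counts in 10% serum and 4.33% to 4.80% in 0.1% serum, and 13 members in 10% serum and 20 in 0.1% serum stood among the 100 highest genes per kilobase. The number called was less firm than the median. It was 50 over all libraries, 19 without library 1, 25 without library 2, 23 without library 8, 30 without library 9, 21 without libraries 3 and 9, and 2 with the pairs summed, while the median stayed between 0.42 and 0.50.

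Mitochondrially encoded genes took 2.04% to 2.25% of the gene counts in 10% serum and 3.09% to 3.86% in 0.1% serum, and the groups did not overlap (exact two-sided permutation test, p = 0.1, the smallest possible). MT-CYB, of respiratory complex III, rose from 1217, 1273 and 1146 to 2157, 2225 and 2778 scaled CPM (0.98 ± 0.22), and MT-ND3, of complex I, from 201, 222 and 199 to 512, 559 and 651 (1.47 ± 0.24). None of the 13 genes was called on the ERCC scale in either direction, where the list median was -0.28. A higher mitochondrial share is also a common sign of RNA quality, and its part in these values was not tested. Without libraries 3 and 9, 3 of the 13 genes were called and the median was 0.54. The nuclear genes of oxidative phosphorylation did not share the rise. Of 67 tested, 1 rose and 11 fell (16.4%, median -0.12), near the 16.6% of all tested genes that fell. The count of fallers depended on single libraries. It was 7 without library 1, 5 without library 2, 6 without library 3, 5 without library 7, 4 without library 8 and none with the pairs summed. Of 40 ribosome biogenesis genes 8 rose and none fell, beside the 16% of all tested genes that rose, with 3 risers without library 1 or 2, 4 without library 7, 2 without library 8, 14 without library 9 and none with the pairs summed.

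Metabolic genes with other regulators gave mixed patterns. NQO1, a quinone reductase and standard target of the antioxidant factor NRF2, fell from 205, 203 and 217 to 39.9, 40.1 and 80.8 scaled CPM (-1.96 ± 0.27, adjusted p = 8.4e-11). The gene of NRF2 itself, NFE2L2, rose from 102, 108 and 112 to 198, 202 and 183 (0.86 ± 0.10, adjusted p = 1.7e-15). Of 25 NRF2 and antioxidant genes 13 fell and 5 rose, or 8 and 5 without library 7. SOD3, the extracellular superoxide dismutase, was among the 5 (1.64 ± 0.39). Sterol synthesis, which is under SREBP2, showed little change in rank, with 2 of 25 lower and 1 higher (median -0.14). HMGCS1, at the start of the sterol pathway, read 30.6, 29.8 and 24.4 against 30.7, 30.3 and 25.8, and the groups overlapped. The sterol list depended on library 9, without which 11 fell and none rose, no member fell without library 7 or 8, and 1 fell without library 2 or 3. INSIG1, a feedback sensor of sterols, read 30.4, 31.7 and 24.3 against 18.2, 19.7 and 38.1 and fell by 0.61 without library 9 (adjusted p = 0.0016). Fatty acid synthesis fell further, with 9 of 17 lower and 1 higher (median -0.47), but 5 were lower without library 3 or 7 and 4 without library 8. FADS3, of the fatty acid desaturase family, fell from 85.6, 88.6 and 155 to 28.2, 32.1 and 36.1 (-1.77 ± 0.21), and ACACB, the mitochondrial acetyl-CoA carboxylase, rose by 1.11.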

How the data were processed

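The authors sequenced poly(A) RNA from 12 libraries (an Illumina stranded mRNA kit, ERCC transcripts added to each RNA sample) and deposited raw read counts per gene and per ERCC transcript. Per the submitters' processing notes, reads were handled with bcl2fastq 2.20.0.422, STAR 2.7.10a and featureCounts 1.5.1 on GRCh38, and the strand setting of the counting is not given in the sources used here. No column of per-sample values was left unused (0).

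The 13236 genes that exceeded 1 CPM in at least 3 libraries were tested, with all 4 groups in 1 edgeR 4.0.16 fit (R 4.3.3, limma 3.58.1) and the likelihood ratio test of 0.1% against 10% serum in wild type, with Benjamini-Hochberg adjustment and a threshold of 0.05. Library sizes were the ERCC counts with TMM factors (ERCC scale; 91 of 92 transcripts had counts) or the gene counts with TMM factors (relative scale). Levels per kilobase used exon lengths from GENCODE 29, which held 58453 of the 60671 identifiers. On simulated counts for the 13236 genes, the relative fit recovered 94 of 100 genes changed 2-fold and 99 of 100 changed 4-fold, with 32 false calls among 13036, and the ERCC fit recovered 3 of 100 and 70 of 100 with 3 false calls.

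Genes were named by a rule: the 15 risers and 15 fallers with the largest change called on both scales, without overlap between groups and with a group mean of 10 CPM or more; the 3 largest called changes per direction in each of 66 lists; and a set of fixed genes. FOSB, TAGLN, ACTB and GAPDH were added after their values were seen. The members, lists and tests were chosen with earlier results of these data known. Alternatives were the quasi-likelihood test, DESeq2 1.42.0, other filters and scalings, wild-type libraries only, leaving out each library or libraries 3 and 9 together, adding up the counts of the 2 lowest-numbered libraries in every group, a covariate for the highest-numbered library, an adjusted p under 0.01 and, chosen after seeing the data, the interaction without the highest-numbered library of each group. Promoters were searched from 250 bases before to 50 after the start.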

Additional observations from a re-analysis of the deposited data

Results flagged for a closer look

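The serum response of some genes differed between the wild type and the LEO1 knockout, which is 1 clone, so the genotype and the clone cannot be told apart. The difference of the log2 fold changes (wild type minus knockout, relative scale) was tested as the interaction term of the edgeR fit, which called 540 of the 13236 genes (4.08%). No outlier test was run on the values of single genes within groups of 3 libraries.

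The knockout libraries 6 and 12 stood apart from their groups as libraries 3 and 9 did. The chi-square statistic per gene was 5.97 for 4 and 5 but 66.8 and 85.4 for the pairs with 6, and 12.2 for 10 and 11 but 145 and 133 for the pairs with 12. A fit chosen after seeing the data left out the highest-numbered library of each group (3, 6, 9 and 12). It called 3594 genes for the interaction, and all 24 genes named here kept their direction and call. These 24 were chosen by their calls in the full fit, which held the same libraries. The pairs kept were the closest of each group, so the spread between libraries was small, and the kept calls are not independent support. The difference moved by over 1.5 times for DIO2 (-0.46, adjusted p = 0.026) and MT-ND3 (0.79, adjusted p = 6.0e-10). Mitochondrially encoded genes took 4.03%, 3.82% and 2.18% of the gene counts in knockout libraries 10, 11 and 12, against 2.68% to 2.94% in knockout libraries in 10% serum, and the part of this share in the MT-ND3 result was not tested.

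Of the named genes that rose in wild type, COL14A1 differed most, with a log2 fold change of 6.87 in wild type and 0.29 in the knockout (difference 6.59, adjusted p = 4.4e-29). TENM4 (difference 4.45), HGF (2.10, with a knockout change of 0.12), APOD (1.86), DPT (1.77) and MT-ND3 (1.21) also rose more in wild type. FOS (-1.59), SOD3 (-1.92), NDRG1 (-1.22) and COL6A1 (-0.86) rose less in wild type than in the knockout. CDKN1A, not called in wild type, rose by 0.93 in the knockout (difference -1.15, adjusted p = 0.00026).

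Several genes that fell in wild type fell less, or were not called, in the knockout. Among matrix and secreted proteins these were A2M (difference -3.37, adjusted p = 7.6e-17), IGFBP5 (-2.08), MFAP5 (-1.67), THBS1 (-1.56) and COL12A1 (-0.86). ASPN had opposite directions, -1.90 in wild type and 2.0 in the knockout (difference -3.90, adjusted p = 5.4e-06). The collagen-binding integrin gene ITGA11 changed by -2.04 in wild type and -0.06 in the knockout (difference -1.98). In energy metabolism the same held for HK2 (-1.34), PFKFB4 (-1.35), PGK1 (-0.98), GAPDH (-0.80) and BNIP3 (-1.26), with adjusted p from 0.00075 to 0.029. DIO2 differed by -1.24, with a fall of more than 4 on the log2 scale in both genotypes.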

How the results depend on the processing

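No paired analysis was possible because the libraries carry running numbers that no 2 groups share. The count of genes lower on the ERCC scale was 8575 with the wild-type libraries only, 606 with the lowest-numbered pairs summed, 1637 at an adjusted p under 0.01, 2217 without libraries 3 and 9, and between 1147 and 7561 with single libraries left out. The count of higher genes was 61 with the pairs summed, 76 at an adjusted p under 0.01, 75 without libraries 3 and 9, and 76 to 105 with single libraries left out. On the relative scale 931 genes fell and 929 rose with the pairs summed, all of them among the 2197 and 2117. Without libraries 3 and 9, 1710 of the 2197 and 1622 of the 2117 were called again, and no gene called on a scale was called in the opposite direction in any alternative on that scale. The cause was not tested. List medians without libraries 3 and 9 were 0.69 for immediate early genes, 0.73 for ERK feedback, -0.79 for actin, -0.16 for YAP targets, -1.0 for glycolysis, -0.38 for hypoxia, -1.43 for mitosis, -1.03 for DNA replication, -0.47 for CDK inhibitors, -0.35 for sterol synthesis, -0.22 for fatty acid synthesis, 0.34 for matrix glycoproteins, 1.28 for cytokines, 0.39 for NF-kB, 0.54 for mitochondrial genes and 0.34 for fibroblast markers. With single libraries left out they ranged from 0.65 to 0.86 for immediate early genes, 0.38 to 0.59 for ERK feedback, -1.05 to -0.74 for actin, -0.49 to -0.25 for YAP targets, -1.21 to -1.06 for glycolysis, -0.53 to -0.40 for hypoxia, -1.04 to -0.35 for mitosis, -0.84 to -0.34 for DNA replication, -0.33 to 0.11 for CDK inhibitors, -0.35 to -0.042 for sterol synthesis, -0.57 to -0.23 for fatty acid synthesis, 0.093 to 0.20 for collagens, 0.31 to 0.69 for matrix glycoproteins, 0.22 to 0.41 for elastic fibres, 0.54 to 0.85 for complement, -0.51 to 0.93 for cytokines, -0.89 to 0.26 for NF-kB, 0.62 to 0.76 for mitochondrial genes, 0.090 to 0.19 for lysosome, 0.34 to 0.49 for fibroblast markers and 0.36 to 0.62 for the retinoic acid pathway. Over members with a mean of at least 10 CPM, the median was 0.14 for matrix glycoproteins and 0.55 for protease inhibitors. Genes near 0 changed sign. With single libraries left out MYC ranged from -0.084 to 0.076, CCND1 from -0.060 to 0.25 and INSIG1 from -0.61 to 0.0053 (-0.72 without libraries 3 and 9). MYC was at 0.017 without library 9, 0.076 without library 3 and 0.12 without both, CCND1 at -0.050 without library 7, -0.060 without library 8 and -0.012 with the pairs summed, HMGCS1 at -0.011 without library 7, -0.000868 without library 8 and -0.062 without library 3, and INSIG1 at 0.0053 without library 7 and 0.052 with the pairs summed. On the ERCC scale the sign turned for COL3A1 (-0.10), NFE2L2 (-0.092), CCND1 (-0.88), HMGCS1 (-0.95), RPS4X (-0.28), RPL13 (-0.31), SRSF5 (-0.33), HNRNPA1 (-0.53), MT-CYB (-0.030) and MT-CO1 (-0.57). Of the 95 genes given with values, 94 kept their direction and call under the quasi-likelihood test and 92 of 93 under DESeq2, and MKI67 was the exception in both. With the pairs summed, 85 of the 95 did. In simulated counts the ERCC fit recovered 3 of 100 changes of 2-fold. Whether this holds for the libraries themselves was not tested.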

Other observations

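Of 24 integrin and focal adhesion genes 9 fell (37.5%) and 1 rose, beside the 16.6% of all tested genes that fell. The median log2 fold change of the list was -0.35. Without library 3, 6 members fell. Without libraries 3 and 9, 5 members fell, and 2343 of all 13236 tested genes fell in that fit. ITGA6, a laminin receptor subunit, went from 72.7, 73.0 and 74.5 scaled CPM in libraries 1, 2 and 3 to 17.9, 14.4 and 21.3 in libraries 7, 8 and 9 (-2.04 ± 0.28), and ITGA11, a collagen receptor subunit, from 252, 236 and 157 to 64.5, 53.8 and 39.0 (-2.04 ± 0.27). ITGB3, the beta subunit of the vitronectin receptor, was the exception, at 6.86, 6.33 and 16.7 against 39.5, 36.9 and 15.4 (1.62 ± 0.44), with library 9 below library 3. Stretches of 58 bases found also in other genes make up 50.7% of ITGB3, and 51.6% of its exon bases lie under exons of another gene on the same strand, so its values are uncertain.

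Splicing factors moved little, with 7 of 47 higher (14.9%, beside the 16% of all tested genes that rose) and none lower (median 0.12). The number was 4 without library 8 and 12 without library 9. SRSF5 went from 91.9, 95.2 and 106 to 150, 154 and 145 scaled CPM (0.61 ± 0.13), and HNRNPA1, of which 21.8% lies in such shared stretches, rose by 0.45. Of 30 autophagy genes 8 fell (26.7%) and none rose, beside the 16.6% of all tested genes that fell. Among the fallers was WIPI1, which binds the forming autophagosome (-0.69 ± 0.13), with 28.1% of its exon bases under exons on the opposite strand. The number of fallers was 5 without library 3 or 8, fits in which 1992 and 1528 of all 13236 tested genes fell.

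Classes of transcripts differed in how they were called. Of 11882 protein-coding genes 17.4% fell and 15.4% rose, whereas of 383 antisense genes 10.44% fell and 22.7% rose, and of 341 lincRNAs 13.5% fell and 21.99% rose. By mean level, 14.3% of the lowest decile fell and 16.8% rose, and in the highest decile 28.5% fell and 20.02% rose. Antisense genes share sequence positions with genes on the other strand, and the strand setting of the counting was not given.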
